A study of Mus musculus with 3 samples.

Results

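CD4 T cells are the T lymphocytes that carry the coreceptor CD4 and answer peptides shown on MHC class II. They help B cells, macrophages and CD8 T cells through secreted cytokines and through CD40 ligand, and a Foxp3-dependent branch restrains immune responses. Naive and recirculating cells hold the transcription factors Tcf7 and Lef1 and the chemokine receptor Ccr7, while effector cells lose these and gain cytokines and tissue receptors. The liver also holds natural killer T cells, which use a restricted T cell receptor, depend on the transcription factor Zbtb16 (PLZF), and in the mouse include CD4-positive cells.

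The members were chosen by UMIs (unique molecular identifiers, 1 per captured RNA molecule) in single-cell RNA sequencing of mouse liver. Barcodes entered if they had 200 genes or more, 500 UMIs or more and a mitochondrial share of no more than 20%. A barcode was counted as a CD4 T cell if Cd3e, Cd3d and Cd3g, which encode chains of the CD3 complex, together had at least 2 UMIs and Cd4 at least 1, with no UMI of Cd8a, Cd8b1, Trdc, Cd79a or C1qb. These 5 genes mark CD8 T cells, gamma-delta T cells, B cells and macrophages. The rule found 407 cells among 30684 kept barcodes.

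All 3 livers came from mice given 500 mg/kg APAP (paracetamol, a liver toxin at high dose), so no uninjured liver is among the groups. The infusion followed 6 hours after the APAP and differed between groups: engineered MSC (mesenchymal stromal cells carrying bispecific polyvalent peptides), native MSC, or PBS, the saline reference. Livers were collected after 4 days, with 1 mouse and 1 library in each group, and the labels used here give no strain, age or sex and no source of the MSCs. A difference between libraries is therefore also a difference between single mice and single preparations, which cannot be told apart from the infusion. Intervals of 95% on shares, levels and ratios cover counting error only. Tests were run only within libraries, where the 3 mice serve as replicates.

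The CD4 T cells numbered 269 in engineered MSC, 83 in native MSC and 55 in PBS, among 10044, 10203 and 10437 kept barcodes. Their median depth was 4401 UMIs in engineered MSC, 5392 in native MSC and 3529 in PBS. Summed over the cells, the total was 1567519 UMIs in engineered MSC, 573262 in native MSC and 209859 in PBS, so the PBS levels rest on the fewest molecules. Only 2 of the cells, in engineered MSC, had a barcode that also occurred in another library. Scrublet, a doublet caller, marked 21 of the cells in engineered MSC, 7 in native MSC and 2 in PBS among its highest scores.

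Markers that the rule did not use were checked first. Trac, the constant segment of the alpha chain, was seen in 85.1% of cells in engineered MSC, 88.0% in native MSC and 74.5% in PBS, against 0.594%, 0% and 0.281% of the B cells of these libraries. Lef1 was seen in 85.1%, 78.3% and 85.5% of cells of engineered MSC, native MSC and PBS, against 8.02%, 5.23% and 5.90% of B cells. These B cells were kept barcodes with at least 2 Cd79a UMIs and no UMI of the CD3 genes or C1qb. Leaving out barcodes with CD3 transcripts itself favours a low share of other T cell genes in them. The median depth of these B cells was 2966, 2433.5 and 2334.5 UMIs in the same order, below that of the T cells. Cd4 itself had a UMI in 9 of 1347 B cells of engineered MSC and in no B cell of the other libraries. The cells therefore carry the T cell markers of their label.

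The limits of the rule lay inside the range of the data. Exactly 1 Cd4 UMI was held by 161 of the cells in engineered MSC, 32 in native MSC and 28 in PBS, and Cd4 transcripts are sparse, so T cells without a Cd4 or Cd8 UMI were also common, with 427 in engineered MSC, 106 in native MSC and 95 in PBS. Exactly 2 CD3 UMIs were held by 10, 3 and 6 members of engineered MSC, native MSC and PBS, and 11, 0 and 8 barcodes of the same libraries fell just outside with 1. C1qb alone kept out 29, 27 and 30 barcodes of engineered MSC, native MSC and PBS, and Cd79a 13, 2 and 3.

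Transcripts of other liver cells were present in the T cell barcodes and differed between libraries. The summed level of 10 hepatocyte genes was 5630 CPM (UMIs scaled to the total of the cells, the unit of every level below) in engineered MSC, 1675 in native MSC and 353 in PBS, against 9950, 2125 and 555 CPM in B cells. Haemoglobin and Alas2 together reached 2692 CPM in engineered MSC, 16307 in native MSC and 9.53 in PBS, and 5 neutrophil genes 128, 570 and 176 CPM. The 7 macrophage genes summed to 258, 1054 and 972 CPM in engineered MSC, native MSC and PBS. The B cell gene Ms4a1 had 1, 0 and 0 UMIs and the NK cell receptor gene Ncr1 1, 0 and 0 UMIs in the same order. The whole lists were not at 0. The 6 B cell genes together had 537, 86 and 52 UMIs, in 185, 49 and 31 of the CD4 T cells of engineered MSC, native MSC and PBS, and most of these UMIs were of Ighm, with 393, 50 and 37. The 5 NK cell genes had 159, 6 and 3 UMIs, in 56, 4 and 3 cells, and Klrb1c and Klre1 gave 108 and 50 of those in engineered MSC. The part of free RNA in the results below was not tested.

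The CD4 T cells were most frequent in the engineered MSC liver. They made up 2.68% of kept barcodes in engineered MSC (interval 2.37 to 3.01), 0.813% in native MSC (0.648 to 1.01) and 0.527% in PBS (0.397 to 0.685). The share in engineered MSC was 5.08 times that in PBS (interval 3.81 to 6.78), and the share in native MSC was 1.54 times that in PBS (1.10 to 2.17). Between the MSC groups, engineered over native, the ratio was 3.29 (2.58 to 4.20). The number of other cells caught in each library enters these shares, and no cell counts per gram of liver are given. The C1qb limit alone kept out 29, 27 and 30 barcodes, beside the 269, 83 and 55 members of engineered MSC, native MSC and PBS. Counting them in would lower each of these ratios, and the shares were not recomputed with them.

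Within the T cells the intervals of the CD4 share overlapped between all 3 libraries. CD4 T cells were 24.9% of CD3-positive barcodes in engineered MSC (interval 22.4 to 27.6), 22.3% in native MSC (18.1 to 26.8) and 24.0% in PBS (18.6 to 30.1). The ratio was 1.04 for engineered MSC over PBS (0.806 to 1.34) and 0.926 for native MSC over PBS (0.687 to 1.25), and 1.12 for engineered MSC over native MSC (0.902 to 1.39). With at least 2 Cd4 UMIs required, the shares were 10.0% in engineered MSC, 13.7% in native MSC and 11.8% in PBS, and engineered MSC over native MSC turned to 0.731 (0.536 to 0.999). Per CD8 T cell, which carries Cd8a or Cd8b1 in place of Cd4, there were 0.903 CD4 T cells in engineered MSC (0.763 to 1.07), 0.542 in native MSC (0.410 to 0.713) and 0.833 in PBS (0.572 to 1.21). Under that stricter rule the CD4 to CD8 ratio was 0.362 in engineered MSC, 0.333 in native MSC and 0.409 in PBS, so the order of the libraries in this ratio hangs on cells with a single Cd4 UMI.

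**Figure D1:**
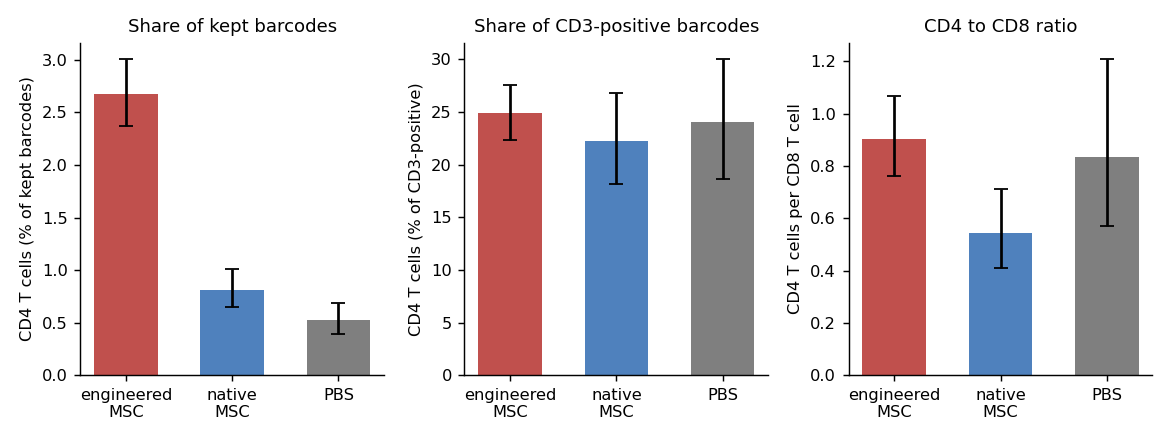
CD4 T cells as a percentage of kept barcodes (left), as a percentage of CD3-positive barcodes (middle) and per CD8 T cell (right), for engineered MSC, native MSC and PBS, with 95% counting intervals and 1 library per bar. The left bars stand at 2.68%, 0.813% and 0.527%, while the middle bars lie between 22.3% and 24.9%.

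The cells were then sorted into ranges by which of a few genes had a UMI, taken in a fixed order. These are gates on sparse counts rather than types, and they were drawn after values were seen, so they are described with no test. Foxp3, the master regulator of regulatory T cells, came first, and was held by 17 of 269 cells in engineered MSC, 4 of 83 in native MSC and 3 of 55 in PBS. Zbtb16 without Foxp3 marked 31.2% of cells in engineered MSC (interval 25.7 to 37.1), 9.64% in native MSC (4.25 to 18.1) and 18.2% in PBS (9.08 to 30.9). Among cells with at least 2 Cd4 UMIs, 20.4%, 7.84% and 3.70% of cells of engineered MSC, native MSC and PBS held a Zbtb16 UMI, against 32.0%, 9.64% and 20.0% of all CD4 T cells. Ccr7 without either marked 21.6% in engineered MSC, 13.3% in native MSC and 30.9% in PBS.

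Of the cells left, those with the chemokine receptor Cxcr6, the granule protein gene Nkg7 or the chemokine Ccl5 made up 17.5% of all CD4 T cells in engineered MSC (interval 13.1 to 22.5), 57.8% in native MSC (46.5 to 68.6) and 10.9% in PBS (4.11 to 22.2). None of these genes had a UMI in 63 cells of engineered MSC, 12 of native MSC and 19 of PBS. The gate with most cells was thus Zbtb16 in engineered MSC, the effector gate in native MSC and, among the named gates, Ccr7 in PBS. The deeper native MSC cells have more chance to show any gene, and the 8 Zbtb16 cells of that library had a median of 13541 UMIs.

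**Figure D2:**
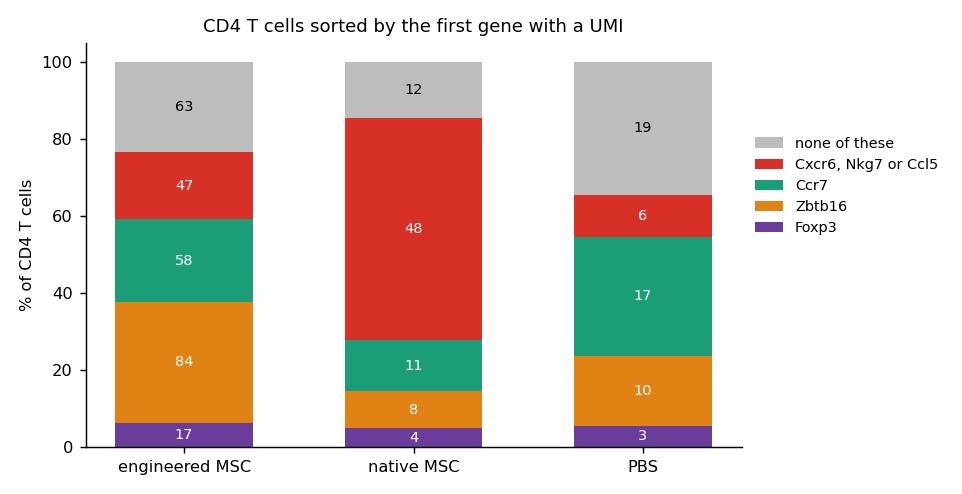
Percentage of CD4 T cells of engineered MSC, native MSC and PBS in 5 gates, each cell placed by the first gate it meets from the bottom up, with the number of cells printed in each segment. The gate for Cxcr6, Nkg7 or Ccl5 holds 47, 48 and 6 cells of engineered MSC, native MSC and PBS, and the Zbtb16 gate 84, 8 and 10.

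The Zbtb16-positive cells were higher in several transcripts known from natural killer T cells. In these cells Il4, the cytokine that drives type 2 help, stood at 587 CPM in engineered MSC, 162 in native MSC and 686 in PBS, against 110, 54.1 and 6.29 CPM in the Zbtb16-negative cells of the same libraries. Xcl1, a chemokine for cross-presenting dendritic cells, had 312, 333 and 373 CPM in Zbtb16-positive cells of engineered MSC, native MSC and PBS, against 27.5, 17.3 and 0 CPM in Zbtb16-negative ones. In all 3 libraries both genes were higher in the Zbtb16-positive cells. The native MSC levels rest on few cells. Il4 was seen in 5 of 8 Zbtb16-positive and 1 of 75 Zbtb16-negative cells there, and Xcl1 in 3 and 1.

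Of other members of that programme, Cxcr6 followed in engineered MSC and PBS, and Klrb1c in engineered MSC. Klrb1c in PBS rested on 2 UMIs in Zbtb16-positive and 1 in Zbtb16-negative cells, with overlapping intervals. Cxcr6 had 556, 180 and 588 CPM in Zbtb16-positive cells of engineered MSC, native MSC and PBS, against 61.8, 171 and 18.9 CPM in Zbtb16-negative cells. Klrb1c, which encodes the receptor NK1.1, was seen in 43 of 86 Zbtb16-positive cells in engineered MSC, in 1 of 8 in native MSC and in 2 of 11 in PBS, against 7 of 183, 2 of 75 and 1 of 44 Zbtb16-negative cells. Trav11, the alpha segment of invariant natural killer T cells, had a UMI in 4 CD4 T cells of engineered MSC and 1 of PBS, and all but 1 of these were Zbtb16-positive. The rule does not separate natural killer T cells from other CD4 T cells.

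Of the genes of naive cells, Lef1 was lower in the Zbtb16-positive cells of all 3 libraries, and Ccr7 in those of engineered MSC and PBS. Lef1 stood at 576, 117 and 392 CPM in Zbtb16-positive cells of engineered MSC, native MSC and PBS, against 1326, 487 and 1932 CPM in Zbtb16-negative cells. Ccr7 was seen in 4 of 86, 1 of 8 and 0 of 11 Zbtb16-positive cells of engineered MSC, native MSC and PBS, against 61 of 183, 11 of 75 and 18 of 44 Zbtb16-negative cells. Its level in the Zbtb16-positive cells of native MSC rested on 1 UMI, with overlapping intervals. Ifng, the cytokine that activates macrophages, was at 239 CPM in Zbtb16-positive cells and 31.4 CPM in Zbtb16-negative cells of engineered MSC. In native MSC it was at 279 CPM (interval 190 to 396) and 389 CPM (335 to 451), which overlap. There 6 of 8 Zbtb16-positive and 35 of 75 Zbtb16-negative cells held an Ifng UMI, so native MSC gave no clear direction.

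Regulatory cells were few. Foxp3 was at 18.5 CPM in engineered MSC (interval 12.4 to 26.6), 14.0 in native MSC (6.02 to 27.5) and 42.9 in PBS (19.6 to 81.4), and no B cell held a UMI of it. The share of cells with a Foxp3 UMI was 6.32% in engineered MSC, 4.82% in native MSC and 5.45% in PBS, and after thinning each cell to 1000 UMIs it was 1.80%, 1.99% and 2.46%. The shares lay within each other's intervals. Il2ra, the high-affinity interleukin 2 receptor chain, was at 46.6 CPM in engineered MSC, 83.7 in native MSC and 205 in PBS. This order did not hold in cells with at least 2 Cd4 UMIs, where Il2ra was higher in both MSC groups than in PBS, by log2 ratios of 1.23 for engineered MSC and 2.06 for native MSC.

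Foxp3-positive cells were compared with Foxp3-negative cells of the same mice by edgeR's quasi-likelihood test with the library as a block. At an adjusted p under 0.05, 10 genes were higher and 14 lower among 3009 tested, or 0.332% and 0.465%. Of the 9 tested genes of a regulatory T cell list, 4 rose and none fell. Ikzf2 (Helios), a partner of Foxp3, had 3867, 1601 and 1154 CPM in Foxp3-positive cells of engineered MSC, native MSC and PBS, against 261, 63.0 and 175 CPM in Foxp3-negative cells. Ctla4, an inhibitory receptor, had 1017, 994 and 1058 CPM in Foxp3-positive cells, against 162, 169 and 89.9 CPM in Foxp3-negative cells. The Ikzf2 change was 3.65 on the log2 scale (SE 0.35), higher in 3 of 3 libraries, with an edgeR Benjamini-Hochberg adjusted p of 0.00072.

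Il2ra and Tnfrsf4 (OX40, a costimulatory receptor) were the other list members that rose. Among the genes that fell were Nkg7 and Ccl5, and also the haemoglobin genes Hbb-bs, Hbb-bt and Hba-a1, which are red cell transcripts. Ighm, the heavy chain gene of B cells, was among the 10 that rose, with 1053, 552 and 337 CPM in Foxp3-positive cells of engineered MSC, native MSC and PBS, against 190, 72.1 and 159 CPM in Foxp3-negative cells (log2 change 2.12, SE 0.42, edgeR Benjamini-Hochberg adjusted p = 0.0469). The part of free RNA in these calls was not tested. The test rests on 17, 4 and 3 Foxp3-positive cells of engineered MSC, native MSC and PBS. With the highest Scrublet scores removed, 14, 4 and 2 were left, and the PBS arm fell from 20799 to 9207 UMIs. The PBS levels of Foxp3-positive cells, Ikzf2, Ctla4 and Ighm among them, thus lean on a cell marked as a possible doublet. Lyz2, a macrophage gene, had 63.5, 166 and 3654 CPM in Foxp3-positive cells of these libraries, against 212, 969 and 370 CPM in Foxp3-negative cells. Without the native MSC library no gene passed, up or down, against 222 genes at an unadjusted p under 0.05.

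Naive and recirculating genes were lowest in native MSC and highest in PBS. Lef1 had 1064 CPM in engineered MSC (interval 1014 to 1116), 415 in native MSC (364 to 471) and 1558 in PBS (1394 to 1737). Ccr7 had 75.9, 43.6 and 210 CPM in engineered MSC, native MSC and PBS. Tcf7, a partner of Lef1, had 413 CPM in engineered MSC, 197 in native MSC and 553 in PBS. PBS stood above engineered MSC and engineered MSC above native MSC for each of these 3 genes.

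A list of 15 such genes was lower in both MSC groups than in PBS. Between native MSC and PBS, 13 of 15 were 2-fold or more lower and none was higher, with a median log2 ratio of -1.52, against -0.01 over all 5948 genes measured (at least 20 UMIs in the pair), of which 10.9% were 2-fold or more lower. Against PBS all 15 were lower in engineered MSC, 3 of them 2-fold or more, with a median of -0.55, against 0.08 over all 8521 genes measured, of which 5.03% were 2-fold or more lower. With at least 2 Cd4 UMIs the median of engineered MSC over PBS was -1.26. Both comparisons share the PBS cells. Engineered MSC stood above native MSC for 14 of 15, for 7 of them 2-fold or more, with a median of 0.98 against 0.06 over all 9015 genes, of which 11.3% were 2-fold or more higher. Klf2, which drives the exit receptor gene S1pr1, was the exception at 709 CPM in engineered MSC and 904 in native MSC.

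Transcription factors that keep T cells quiescent were among the genes with wide gaps. Bach2 had 606 CPM in engineered MSC, 218 in native MSC and 1449 in PBS. Foxp1 had 1176, 443 and 1997 CPM and the chromatin organiser Satb1 1073, 543 and 1858 CPM in engineered MSC, native MSC and PBS. No single cell carried these values, since the highest cell held at most 10.4% of the UMIs of any of these 3 genes in native MSC and at most 6.21% in PBS. Without cells holding Mki67 or Top2a UMIs the list median for engineered MSC over native MSC was 0.61, and with every cell weighted alike it was 0.74.

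CD8 T cells of the same livers gave smaller gaps in the same order. The summed level of the 15 genes was 6461 CPM in engineered MSC, 3604 in native MSC and 10731 in PBS in CD4 T cells, and 8051, 5065 and 10257 CPM in CD8 T cells. Many of these genes are also expressed by B cells, whose UMIs summed to 8932, 7451 and 9865 CPM. The order of the libraries was thus the same in all 3 cell types, and whether the gap is wider in CD4 T cells was not tested.

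**Figure D3:**
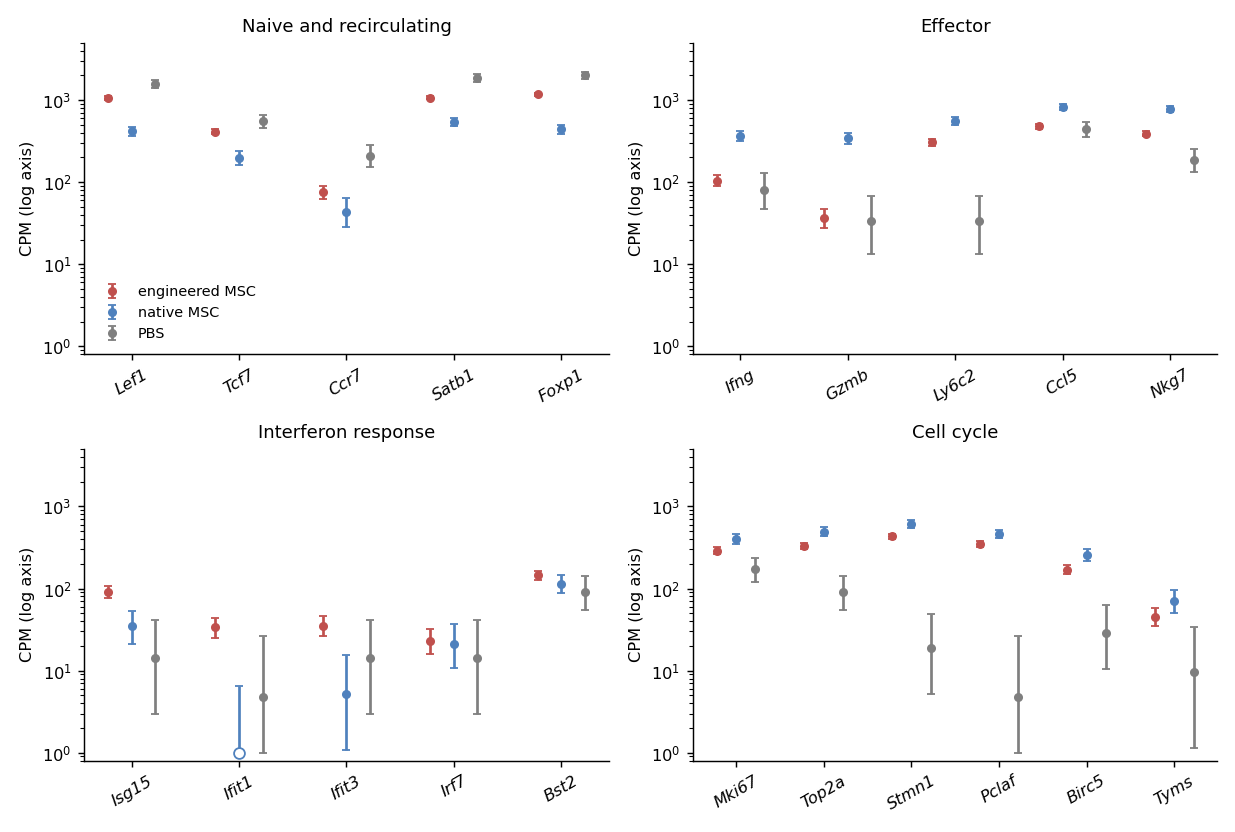
Levels in CD4 T cells, in CPM on a log axis, for genes of 4 groups in engineered MSC, native MSC and PBS, with 95% counting intervals and an open circle at 1 for a gene at 0. Lef1 stands at 1064, 415 and 1558 CPM, Gzmb at 36.4, 342 and 33.4 CPM and Isg15 at 91.9, 34.9 and 14.3 CPM in this order of libraries.

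Effector genes were highest in native MSC. Ifng had 104 CPM in engineered MSC (interval 88.6 to 121), 368 in native MSC (320 to 421) and 81.01 in PBS (47.2 to 130). Gzmb, which encodes the death protease granzyme B, had 36.4 CPM in engineered MSC, 342 in native MSC and 33.4 in PBS, and was seen in 26, 27 and 4 cells. The native MSC values stood clear of the other libraries, while engineered MSC and PBS overlapped in their intervals for both genes.

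In a list of 21 T helper 1 and cytotoxic genes, 16 of 19 measured were lower in engineered MSC than in native MSC, 8 of them 2-fold or more, with a median log2 ratio of -0.89, where 5.16% of all genes were 2-fold or more lower. In native MSC over PBS, 15 of 18 were higher, 6 of them 2-fold or more, with a median of 0.79, where 16.7% of all genes were 2-fold or more higher, and with at least 2 Cd4 UMIs the median was 1.75. Engineered MSC over PBS gave 12 of 18 higher, 2 of them 2-fold or more, with a median of 0.28, where 17.5% of all genes were 2-fold or more higher. Il18rap, a chain of the interleukin 18 receptor, had 45.9, 194 and 38.1 CPM and Il12rb2, a chain of the interleukin 12 receptor, 90.6, 267 and 143 CPM in engineered MSC, native MSC and PBS. Summed, the list had 3595, 5910 and 3126 CPM in CD4 T cells of these libraries. In CD8 T cells it had 6376, 9461 and 3803 CPM, so native MSC was highest there too.

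Some members did not follow that order. Ly6c2, a surface antigen of effector cells, had 305 CPM in engineered MSC, 563 in native MSC and 33.4 in PBS, so both MSC groups stood above PBS, by 9.14 times for engineered MSC (interval 4.40 to 22.9) and 16.9 times for native MSC (8.11 to 42.4). Tbx21 (T-bet), the T helper 1 master regulator, had 187, 166 and 152 CPM in engineered MSC, native MSC and PBS, within counting error of each other. Gzma, granzyme A, had 2.55 CPM in engineered MSC, 62.8 in native MSC and 0 in PBS, and 1 cell held 69.4% of the native MSC UMIs. The chemokine Ccl4 had 29.3, 131 and 386 CPM, but 1 cell held 91.4% of the PBS UMIs and 1 cell 69.3% of those in native MSC, and without the highest cell of each library the log2 ratio of engineered MSC over PBS was -0.63 and that of native MSC over PBS 0.27.

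Single genes with a wide gap, lower in engineered MSC than in native MSC, included regulators of cytokine signalling. Of those named next, Bhlhe40 and Ifngr1 are also members of the gene lists. Furin, a protein convertase, had 31.9 CPM in engineered MSC and 372 in native MSC, a ratio of 0.0858 (interval 0.0618 to 0.117). Cish, a feedback inhibitor of cytokine receptors, had 24.9 and 145 CPM, the transcription factor Bhlhe40 67.6 and 265 CPM, the interferon-gamma receptor chain Ifngr1 215 and 762 CPM, and S100a4, a calcium-binding protein of effector cells, 180 and 696 CPM in engineered MSC and native MSC. No cell held more than 10% of the UMIs of these 5 genes in either library. In CD8 T cells the ratios of Furin, Cish, Bhlhe40, Ifngr1 and S100a4 were 0.554, 0.356, 0.608, 0.531 and 0.310. In all kept barcodes other than members they were 0.693, 1.66, 1.05, 0.512 and 0.226. The S100a4 ratio in CD4 T cells was 0.258, so its gap was not particular to them. The genes that stood highest in engineered MSC over native MSC outside the lists, such as Mup3, Scd1 and Cyp3a11, are hepatocyte transcripts, and the hepatocyte level given above was also highest in engineered MSC. Their origin was not tested.

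Glycolytic genes were also highest in native MSC, and not in CD4 T cells alone. The list summed to 2342, 4014 and 1968 CPM in CD4 T cells of engineered MSC, native MSC and PBS. CD8 T cells had 1775, 3097 and 1896 CPM, B cells 1136, 1562 and 1279 CPM, and all kept barcodes other than members 2254, 4443 and 4165 CPM. A link to the effector genes was not tested. In a list of 12, 11 were lower in engineered MSC than in native MSC, 3 of them 2-fold or more, with a median log2 ratio of -0.73. Of all genes 5.16% were 2-fold or more lower in this pair. Gapdh had 848, 1511 and 548 CPM and Eno1 100, 241 and 90.5 CPM in engineered MSC, native MSC and PBS, both enzymes of glycolysis. In native MSC over PBS, 10 of 11 were higher and 5 were 2-fold or more higher, with a median of 0.87, where 16.7% of all genes were 2-fold or more higher. Between engineered MSC and PBS, 7 of 11 were higher and 2 of these 2-fold or more, with a median of 0.20, and this count is near the 17.5% of all genes that were 2-fold or more higher.

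The observed share of dividing cells was highest in native MSC and lowest in PBS. Mki67 or Top2a, genes of dividing cells, had a UMI in 24.2% of CD4 T cells in engineered MSC (interval 19.2 to 29.7), 38.6% in native MSC (28.1 to 49.9) and 14.5% in PBS (6.50 to 26.7). Thinned to 1000 UMIs per cell, the shares were 13.4%, 22.9% and 5.45%. B cells of the same livers had 8.39%, 5.88% and 1.12%, and CD8 T cells 16.4%, 33.3% and 7.58%. The engineered MSC interval overlaps those of both native MSC and PBS.

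The 15 cell cycle genes were all higher in both MSC groups than in PBS. In engineered MSC 14 of them were 2-fold or more higher, where 17.5% of all genes were. In native MSC all 15 were, where 16.7% of all genes were. The median log2 ratio was 2.72 for engineered MSC over PBS and 3.58 for native MSC over PBS, or 2.43 and 2.87 with 3 genes at 0 in PBS set to the bound that a floor of 3 UMIs allows. Stmn1, a microtubule regulator, had 433 CPM in engineered MSC, 609 in native MSC and 19.1 in PBS, and Pclaf, a partner of the replication clamp, 351, 464 and 4.77 CPM. All 15 were lower in engineered MSC than in native MSC, with a median of -0.51, and 1 of them was 2-fold or more lower, near the 5.16% of all genes. Without the cells holding Mki67 or Top2a UMIs the medians over PBS were 0.41 for engineered MSC and 0.51 for native MSC. Those cells were removed for genes of dividing cells, so a fall of these medians was fixed in advance.

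The dividing cells fell into several gates. Of the dividing cells in engineered MSC, 23 of 65 held Zbtb16, 17 Ccr7 and 16 Ifng. In native MSC 4 of 32 held Zbtb16, 3 Ccr7 and 22 Ifng. In PBS 8 cells were dividing. By gate, the share of dividing cells in engineered MSC was highest at 38.3% among the cells with Cxcr6, Nkg7 or Ccl5 and at 35.3% among the 17 Foxp3-positive cells, and in native MSC it was 47.9% among the cells with Cxcr6, Nkg7 or Ccl5 (the 8 Zbtb16 cells of native MSC gave 50.0%). Dividing cells were deeper, with a median of 8033 UMIs in engineered MSC against 4127.5 in the other cells, so they show more genes of any kind.

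Interferon response genes were highest in engineered MSC. Isg15, a ubiquitin-like protein, had 91.9 CPM in engineered MSC (interval 77.5 to 108), 34.9 in native MSC (21.3 to 53.9) and 14.3 in PBS (2.95 to 41.8). Ifit3 had 35.1, 5.23 and 14.3 CPM in engineered MSC, native MSC and PBS. Ifit1, like Ifit3 an RNA-binding antiviral protein, had 33.8 CPM in engineered MSC, 0 in native MSC and 4.77 in PBS. Engineered MSC was above native MSC for all 3, with intervals that did not overlap. Against PBS the intervals of Isg15 were apart too. For Ifit3 the PBS level equals that of Isg15, and its interval of 2.95 to 41.8 holds the 35.1 CPM of engineered MSC. The Ifit1 level in PBS is that of 1 UMI.

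Of 32 genes in the list, 30 were measured in engineered MSC over PBS: 26 were higher, 11 of them 2-fold or more, where 17.5% of all genes were. The median log2 ratio was 0.68, or 0.59 with 2 genes at 0 in PBS set to their bound. In engineered MSC over native MSC, 27 of 30 were higher, 14 of them 2-fold or more, with a median of 0.91, where 11.3% of all genes were 2-fold or more higher. In native MSC over PBS 17 were measured, with 2 of them 2-fold or more higher and 2 lower and a median of -0.08, where 16.7% of all genes were higher by this fold and 10.9% lower. With at least 2 Cd4 UMIs the median of engineered MSC over native MSC was 0.47.

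The level did not sit in 1 gate. In engineered MSC the summed level of the list was 2316 CPM among cells with Ccr7, 2939 among Zbtb16 cells, 2950 among cells with Cxcr6, Nkg7 or Ccl5 and 3232 among Foxp3 cells. In native MSC it was 1496, 1269, 1818 and 2154 CPM in the same gates, and in PBS 1791, 1726, 1917 and 1490 CPM. Each of these 4 gates was higher in engineered MSC than in the other libraries, although the Foxp3 gate holds 4 cells in native MSC and 3 in PBS. CD8 T cells of engineered MSC, native MSC and PBS had 2056, 1348 and 1671 CPM and B cells 1668, 1122 and 1197 CPM, in the same order of engineered MSC above the rest.

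Promoters of these genes carry a known element. The interferon-stimulated response element binds a complex with Stat2 and Irf9, and its core is taken here as TTTC, any 2 bases and TTTC again, searched on both strands with overlapping matches allowed, in the 250 bases before to 50 after each gene's start. RefSeq promoters (table build GRCm38.p6, not the build of the counts) were matched for 26 of the 32 genes, and 17 of these, or 65.4%, held the letters, against 3.99% of 27025 genes in the table. The promoters of 3 genes named above are shown because all 3 genes had their highest level in engineered MSC, for Ifit3 within counting error of PBS. Matches are in capitals and the strand of the gene is read from 5′ to 3′. Isg15 lies at chr4:156200769-156201068 on the minus strand, Ifit1 at chr19:34640639-34640938 and Ifit3 at chr19:34583279-34583578 on the plus strand.
Isg15: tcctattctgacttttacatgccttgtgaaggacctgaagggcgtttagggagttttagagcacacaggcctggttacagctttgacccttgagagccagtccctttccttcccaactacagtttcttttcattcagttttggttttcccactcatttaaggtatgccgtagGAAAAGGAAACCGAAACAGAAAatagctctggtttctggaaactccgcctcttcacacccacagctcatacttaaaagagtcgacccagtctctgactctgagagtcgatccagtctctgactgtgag
Ifit1: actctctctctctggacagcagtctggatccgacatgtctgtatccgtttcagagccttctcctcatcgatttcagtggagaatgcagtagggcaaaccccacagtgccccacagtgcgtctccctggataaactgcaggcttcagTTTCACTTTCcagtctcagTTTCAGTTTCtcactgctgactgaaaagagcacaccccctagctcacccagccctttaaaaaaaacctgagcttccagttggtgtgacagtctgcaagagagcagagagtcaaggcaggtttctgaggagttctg
Ifit3: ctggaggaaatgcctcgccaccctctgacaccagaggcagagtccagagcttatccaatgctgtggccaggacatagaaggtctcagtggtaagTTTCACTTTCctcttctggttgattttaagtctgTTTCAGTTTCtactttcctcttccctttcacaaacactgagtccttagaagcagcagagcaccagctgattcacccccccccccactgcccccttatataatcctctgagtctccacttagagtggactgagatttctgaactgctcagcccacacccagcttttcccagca
Isg15 holds 3 matches that overlap, all in the reverse reading (GAAA, any 2 bases, GAAA), and Ifit1 and Ifit3 hold 2 each. A match is a description of the letters and not of binding in these cells.

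**Figure D4:**
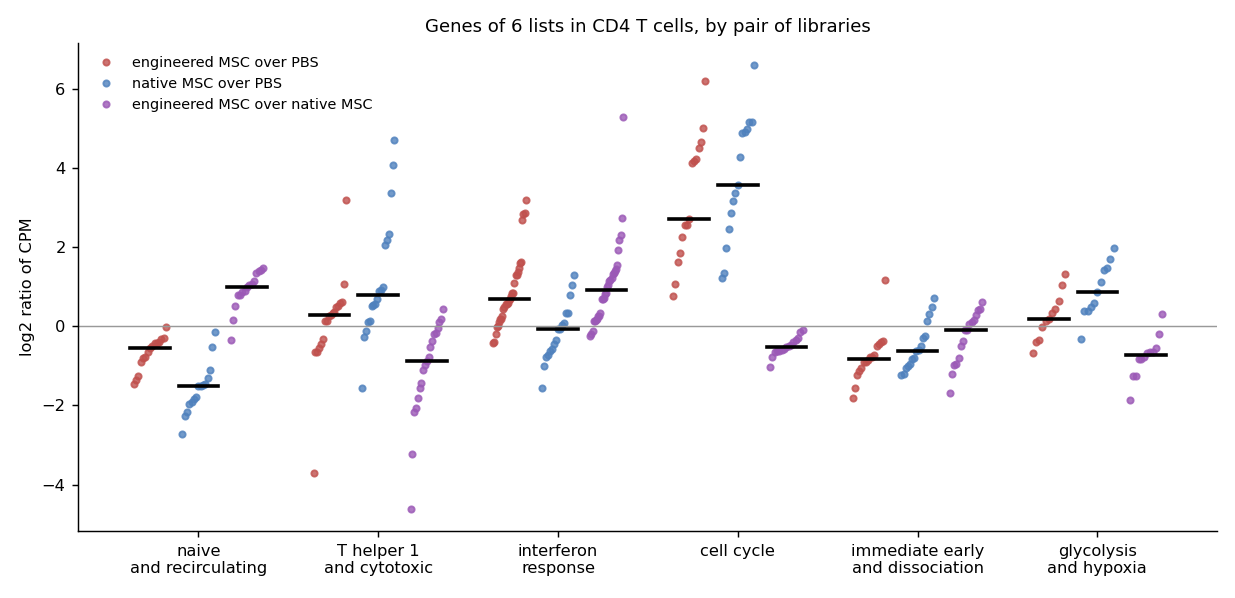
Log2 ratio of CPM in CD4 T cells for each gene of 6 lists with at least 20 UMIs in the pair, for engineered MSC over PBS, native MSC over PBS and engineered MSC over native MSC, with black bars at list medians. Interferon response genes have medians of 0.68, -0.08 and 0.91, and naive and recirculating genes -0.55, -1.52 and 0.98.

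Immediate early genes were lower in both MSC groups than in PBS. Of 16 genes 15 were lower in engineered MSC than in PBS, 5 of them 2-fold or more, with a median log2 ratio of -0.82, where 5.03% of all genes were 2-fold or more lower. In native MSC over PBS 12 of 16 were lower, 3 of them 2-fold or more, with a median of -0.62, where 10.9% of all genes were 2-fold or more lower. Dusp1, a phosphatase induced by stress, had 174, 401 and 610 CPM and Junb 558, 794 and 1229 CPM in engineered MSC, native MSC and PBS. These genes are known to respond to tissue dissociation, and in B cells the list summed to 5583, 7065 and 7859 CPM in the same order of libraries. The part of tissue handling in this was not tested.

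Activation genes had no single direction against PBS. Relative to PBS 12 of 14 were lower in engineered MSC, 3 of them 2-fold or more, where 5.03% of all genes were. The median was -0.34, but with at least 2 Cd4 UMIs it was 0.79. In native MSC 8 of 13 were higher than in PBS, 3 of them 2-fold or more, with a median of 0.36, where 16.7% of all genes were 2-fold or more higher. In engineered MSC over native MSC 12 of 14 were lower, 3 of them 2-fold or more, with a median of -0.62, where 5.16% of all genes were 2-fold or more lower. Icos, a costimulatory receptor, had 343, 518 and 424 CPM and the transcription factor Irf4 54.2, 157 and 110 CPM in engineered MSC, native MSC and PBS. With at least 2 Cd4 UMIs Irf4 turned to a log2 ratio of 1.34 for engineered MSC over PBS. Il7r, the receptor of the survival cytokine interleukin 7, had 298, 267 and 762 CPM, so both MSC groups stood below PBS.

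Helper lineages other than T helper 1 were read from few genes. Gata3, the T helper 2 regulator, had 205 CPM in engineered MSC, 99.4 in native MSC and 200 in PBS, and Il4 277, 75.0 and 172 CPM. Zbtb16-positive cells held 322, 18 and 35 Il4 UMIs in engineered MSC, native MSC and PBS, and Zbtb16-negative cells 112, 25 and 1. In native MSC the 25 all came from 1 cell, and the 18 from 5 cells. The Il4 level is therefore not a reading of T helper 2 cells alone, and the part of natural killer T cells in it was not tested. Il5, Il17a and Il22 had no UMI in any of the cells. Tox, a regulator of exhausted and helper cells, had 526, 159 and 486 CPM in engineered MSC, native MSC and PBS.

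CD4 and CD8 T cells of the same mice were compared by edgeR's quasi-likelihood test with the library as a block, on UMIs summed over 269 and 298 cells in engineered MSC, 83 and 153 in native MSC and 55 and 66 in PBS. At an adjusted p under 0.05, 139 genes were higher and 114 lower in CD4 T cells among 8352 tested, or 1.66% and 1.36%, with the genes of the rule left out. The smallest p among the higher genes belonged to Il4, St8sia6 and Cd40lg. Il4 had 277, 75.0 and 172 CPM in CD4 T cells of engineered MSC, native MSC and PBS, against 4.35, 0 and 3.46 CPM in CD8 T cells. Cd40lg, the CD40 ligand, had 223, 169 and 172 CPM in CD4 T cells, against 11.4, 0.86 and 0 CPM in CD8 T cells.

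The log2 difference of Cd40lg was 4.92 (SE 0.35, edgeR Benjamini-Hochberg adjusted p = 2.48e-06), in 3 of 3 libraries. Zbtb7b (ThPOK), the regulator that commits thymocytes to the CD4 lineage, was low but higher in CD4 T cells, with 31.9, 27.9 and 28.6 CPM against 4.90, 3.44 and 3.46 CPM in CD8 T cells of engineered MSC, native MSC and PBS. Gata3, Icos, Runx1, the integrin chain Itgb3, the surface antigen Ly6a and the sialyltransferase gene St8sia6 were also higher. All 3 tested genes of the T helper 2 list rose, as did 7 of 13 in the regulatory list, where Itgae, an integrin chain that binds E-cadherin, fell. The Ifng level was higher in CD4 than in CD8 T cells by 1.57 on the log2 scale (SE 0.19, edgeR Benjamini-Hochberg adjusted p = 0.000286), as were Cxcr6 and Zbtb16.

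The smallest p among the lower genes belonged to Gm44174 and Bend4, followed by Ccl5 and Eomes. Gm44174 had 0.64, 0 and 0 CPM in CD4 T cells of engineered MSC, native MSC and PBS, against 225, 133 and 183 CPM in CD8 T cells, and Bend4 2.55, 0 and 0 CPM in CD4 T cells, against 86.0, 80.8 and 166 CPM in CD8 T cells. Sparc, Fgf13, Crtam, Klra7, Gzma and Runx3 made up the rest of the 10. Eomes, a regulator of cytotoxic memory, had no UMI in any CD4 T cell, against 52.2, 59.3 and 86.5 CPM in CD8 T cells of engineered MSC, native MSC and PBS, with an edgeR Benjamini-Hochberg adjusted p of 3.88e-05. Ccl5 had 482, 822 and 438 CPM in CD4 T cells, against 2565, 2931 and 1166 CPM in CD8 T cells. Runx3, which silences Cd4 in the CD8 lineage, had 67.6, 94.2 and 90.5 CPM in CD4 T cells, against 229, 234 and 346 CPM in CD8 T cells. In the T helper 1 and cytotoxic list of 21, 4 rose and 8 fell, and those that fell included Gzma, Gzmk, Prf1 and Gzmb, the last lower in 2 of 3 libraries.

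Ccr7 was lower in CD4 than in CD8 T cells, by a log2 difference of -0.95, while Lef1 and Tcf7 were not called. Mki67 and Top2a were higher in CD4 T cells, by 1.00 and 0.81. DESeq2 called 70 genes higher and 54 lower. Without the library block edgeR called 7 higher and 5 lower, so most calls rest on comparing cells within each mouse.

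**Figure D5:**
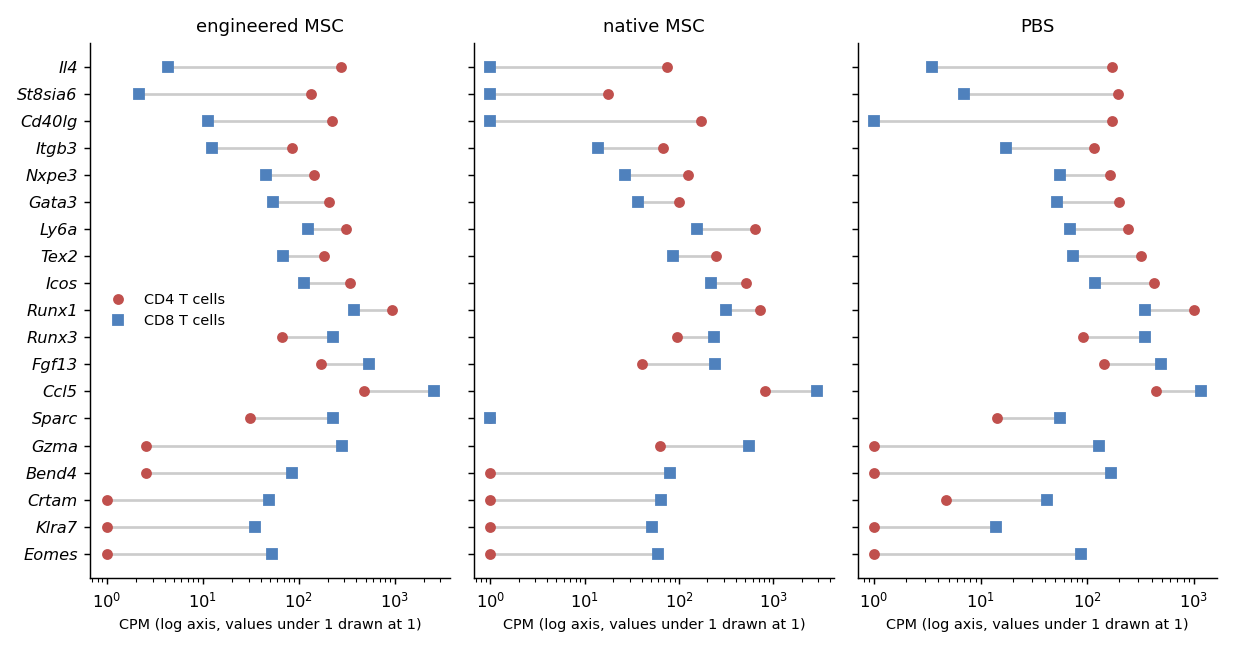
CPM on a log axis in CD4 T cells (circles) and CD8 T cells (squares) of engineered MSC, native MSC and PBS for 19 of the 20 genes with the smallest p, 10 in each direction, of the edgeR test between these cells. Il4 stands at 277, 75.0 and 172 CPM in CD4 T cells against 4.35, 0 and 3.46 in CD8 T cells, and values under 1, such as Eomes in CD4 T cells, are drawn at 1.

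The T cell receptor segments were read in few cells, and the libraries read the 3′ end of transcripts, away from the variable segment. A beta variable segment had a UMI in 27 of 269 cells in engineered MSC, 5 of 83 in native MSC and 4 of 55 in PBS, and an alpha segment in 31, 21 and 4. Trbv12-2 was the most frequent beta segment in engineered MSC, in 7 cells. In native MSC Trav16d-dv11 was seen in 6 of the 21 cells with an alpha segment. Near-identical copies of alpha segments can share reads, so single segment counts are uncertain.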

How the data were processed

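Single cells of 3 mouse livers were sequenced with 3′ chemistry, per the labels' protocols. The authors deposited raw counts (UMIs) per barcode, of which 34099 genes were used here. Cell Ranger 7.1.0 and GRCm39 are named in the submitters' processing notes, with no further step given in the sources used here. The total was 62564254 UMIs in engineered MSC, 84950721 in native MSC and 82247448 in PBS. No annotation of cells was used.

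UMIs were summed over the member cells of a library and scaled to CPM, with exact Poisson intervals. Shares have Clopper-Pearson intervals, ratios of levels exact conditional binomial intervals and ratios of shares log-normal ones, at 95%. A gene entered a comparison of libraries with at least 20 UMIs in the pair and was counted as past the fold at 2. A count of 0 was set to 0.5 in log2 ratios, and UMIs are not corrected for free RNA. Groups of 1 library allow no test. Within libraries, edgeR 4.0.16 (R 4.3.3, quasi-likelihood test, TMM, filterByExpr, library as block, Benjamini-Hochberg over all genes tested) was run, since both arms come from the same mouse, and DESeq2 1.42.0 was an alternative. The edgeR test and the ratio intervals were tested on simulated data. Scrublet (scanpy 1.11.5) gave doublet scores, and the highest, 0.8% per 1000 barcodes, were removed only as an alternative.

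A planned test within the members and some genes are not reported here. The members and the gene lists were chosen with earlier results of these data known. The genes named are fixed state genes, up to 4 of each list with the largest ratio, the 8 genes with the interval bound furthest from equality in each direction of a comparison (with 50 UMIs or more and a level of 50 CPM or more where the gene is higher, and 0.5 times the level of other cells), and the 10 genes with the smallest p in each direction of a test. Further list members, the gates and Zbtb16 subsets, and the promoters shown were chosen after their values were seen.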

Additional observations from a re-analysis of the deposited data

How the results depend on the processing

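With 1 mouse per group, no alternative replaces a second animal, and the 55 PBS cells limit every ratio over PBS. Of 2613 gene ratios recomputed, 2419 stayed within their counting interval, 183 moved outside it and 11 reversed. Only ratios of 2-fold or more could count as reversed, so a smaller ratio may have changed sign without being counted. Of 627 list medians 26 moved, and of 308 gene changes in tests 57 lost their call. The cause of each shift was not tested.

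With at least 2 Cd4 UMIs, 108, 51 and 27 cells were left in engineered MSC, native MSC and PBS. The log2 ratio of engineered MSC over native MSC was then 1.11 for the share of kept barcodes and -0.45 for that of CD3-positive barcodes, and the CD4 to CD8 ratio 0.362, 0.333 and 0.409. List medians of engineered MSC over PBS were -1.26 for naive, 0.79 for activation, 0.079 for tissue residence, 0.60 for adhesion and 0.019 for survival genes. Those of native MSC over PBS were 1.75 for T helper 1, -0.25 for follicular helper, 0.74 for tissue residence, 0.38 for MHC class I and 0.70 for survival genes. Those of engineered MSC over native MSC were 1.17 for naive, -1.17 for T helper 1, 0.47 for interferon and -0.70 for survival genes, with 619 genes 2-fold higher and 293 lower. Reversed log2 ratios over PBS were Il2ra 1.23, Tnfrsf9 1.34, Prdm1 1.72, Nt5e 0.45 and Irf4 1.34 in engineered MSC, and Il2ra 2.06 and Nt5e 0.68 in native MSC. With the highest Scrublet scores removed, G0s2 turned to 2.05, Il1b to 0.68 and Cxcl2 to 1.09 for engineered MSC over PBS, and without its highest cell G0s2 turned to 0.046.

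Thinning every barcode to 1000 UMIs gave a log2 ratio of 1.80 for the share of kept barcodes in engineered MSC over PBS, and CD4 to CD8 ratios of 0.618, 0.396 and 0.567. Without cells holding Mki67 or Top2a, chosen after seeing the data, medians over PBS were 0.41 (engineered MSC) and 0.51 (native MSC) for cell cycle genes and -0.27 (native MSC) for immediate early genes. A fall for cell cycle genes was fixed in advance by this removal. Engineered MSC over native MSC then gave 0.61 for naive, -0.61 for T helper 1 and 0.24 for follicular helper genes. The counts were 977 genes 2-fold higher in engineered MSC than in PBS, and 349 higher and 412 lower in native MSC than in PBS. With each cell counted alike, medians were -0.39 for immediate early genes (native MSC over PBS), 0.74 for naive and -1.24 for T helper 17 genes (engineered MSC over native MSC). With no minimum of UMIs, T helper 17 medians were -1.43, -1.45 and -0.45 for engineered MSC over PBS, native MSC over PBS and engineered MSC over native MSC. The genes 2-fold higher and lower were then 2378 and 3702, 2470 and 2943, and 2734 and 2011 in these comparisons, and with at least 50 UMIs 664 and 193, 406 and 311, and 484 and 224.

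Library comparisons hold 1 library per group. No paired analysis was possible because these groups have no second replicate. The tests within libraries pair the arms by mouse, and with no replicate block edgeR called 7 genes higher and 5 lower for CD4 against CD8 (398 at an unadjusted p under 0.05), and 3 and 4 for Foxp3. DESeq2 called 70 and 54, and 21 and 12. Without a filter on low counts the calls were 263 and 284, and 16 and 27. With the highest Scrublet scores removed they were 119 and 88, and 34 and 22. Leaving out 1 library in turn gave 111 to 175 higher and 129 to 146 lower for CD4 against CD8, and 0 to 29 and 0 to 24 for Foxp3 (0 and 0 without native MSC, with 222 genes at an unadjusted p under 0.05).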
